A study of Mus musculus with 12 samples.

Results

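The nuclear-encoded genes of oxidative phosphorylation were taken as the rows whose gene symbol matches the naming of complex I subunits (Nduf followed by a, b, c, s or v and a number), complex II (Sdha to Sdhd), complex III (symbols starting Uqcr), complex IV (symbols starting Cox4 to Cox8) and ATP synthase (symbols starting Atp5). This rule uses names and no measured value, and it found 83 of the 24411 rows: 36 for complex I, 4 for complex II, 8 for complex III, 18 for complex IV and 17 for ATP synthase. RNA was sequenced from primary colonic myofibroblasts (CMFs), mesenchymal cells that lie beneath the epithelium, isolated from the distal colon of C57BL/6 mice aged 16 weeks. The 6 knockout libraries came from TNFR1-/- mice, which carry no intact copy of the tumor necrosis factor receptor gene Tnfrsf1a, and the 6 control libraries from heterozygous TNFR1+/- mice, which carry 1. All cells of both groups were at passage 6 to 8, received no treatment, were supplied with serum, insulin, transferrin, selenite and epidermal growth factor during outgrowth, and were harvested on day 5 in Matrigel, a basement membrane gel. No source says how many mice or cultures stand behind the libraries, so the p-values rest on the spread between the samples alone, and that spread may be technical. The control group keeps 1 knockout allele, so it is not wild type.

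In oxidative phosphorylation, complexes I and II pass electrons from NADH and succinate to ubiquinone, complex III passes them to cytochrome c, and complex IV to oxygen. Complexes I, III and IV pump protons across the inner mitochondrial membrane, and ATP synthase uses their return flow to make ATP. Most subunits are encoded in the nucleus, and a core set is encoded by mitochondrial DNA. No gene of a list of these mitochondrial subunits was found by symbol among the rows, so their transcripts could not be analysed here. Fibroblasts in culture draw ATP from glycolysis as well as from oxidative phosphorylation.

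Many promoters of these genes hold recognition sequences of nuclear respiratory factor 1 (NRF1), of ETS factors such as GABPA (a subunit of the factor also called NRF2) and of YY1. RefSeq promoter windows of the GRCm38.p6 assembly, 250 bases before to 50 bases after a gene's start, were found for 66 of the 83 genes (71 windows). The motifs searched on both strands were GCGCA followed by any base and then GCGC for NRF1, CCGGAAG for ETS and AAGATGGC for YY1, and the ETS letters can lie within other motifs. The windows of 5 genes are shown from 250 bases before to 30 bases after the start, 5′ to 3′, with motif matches in capitals. Atp5g1, Atp5g2 and Atp5g3 are shown because they encode the same protein and moved apart, and Uqcrh and Cox8a because they are small subunits that differed in opposite directions and both hold the ETS letters.
Atp5g1, chr11:96075602-96075881: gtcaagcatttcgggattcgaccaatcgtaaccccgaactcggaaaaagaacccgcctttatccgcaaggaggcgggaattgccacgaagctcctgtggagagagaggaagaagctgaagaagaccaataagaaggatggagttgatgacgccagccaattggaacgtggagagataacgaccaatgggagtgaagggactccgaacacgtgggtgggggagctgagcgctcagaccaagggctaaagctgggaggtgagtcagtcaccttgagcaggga
Atp5g2, chr15:102671018-102671297: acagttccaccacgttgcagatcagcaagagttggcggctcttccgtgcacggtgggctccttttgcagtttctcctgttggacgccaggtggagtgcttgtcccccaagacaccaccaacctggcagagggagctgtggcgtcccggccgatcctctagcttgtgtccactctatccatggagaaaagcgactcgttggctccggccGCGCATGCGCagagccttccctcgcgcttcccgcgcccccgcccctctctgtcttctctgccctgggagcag
Atp5g3, chr2:73911297-73911576: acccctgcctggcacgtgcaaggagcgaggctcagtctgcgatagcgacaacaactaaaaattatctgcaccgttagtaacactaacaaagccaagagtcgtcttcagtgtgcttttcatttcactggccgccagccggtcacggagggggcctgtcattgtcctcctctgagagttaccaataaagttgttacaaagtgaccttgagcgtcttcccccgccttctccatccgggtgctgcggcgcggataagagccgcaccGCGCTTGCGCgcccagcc
Uqcrh, chr4:116075041-116075320: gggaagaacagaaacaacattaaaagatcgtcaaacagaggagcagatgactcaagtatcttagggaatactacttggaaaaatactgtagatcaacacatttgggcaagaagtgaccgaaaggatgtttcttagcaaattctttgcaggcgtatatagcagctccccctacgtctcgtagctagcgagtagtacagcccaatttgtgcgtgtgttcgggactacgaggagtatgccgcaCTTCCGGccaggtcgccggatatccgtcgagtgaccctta
Cox8a, chr19:7217587-7217866: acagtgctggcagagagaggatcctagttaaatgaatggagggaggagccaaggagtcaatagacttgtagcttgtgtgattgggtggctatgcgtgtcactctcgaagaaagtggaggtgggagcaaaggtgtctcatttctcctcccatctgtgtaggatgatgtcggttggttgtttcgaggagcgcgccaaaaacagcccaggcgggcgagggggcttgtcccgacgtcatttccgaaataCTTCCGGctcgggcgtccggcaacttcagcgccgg
All 5 lie on the minus strand, and the end of each window but that of Atp5g2 was found in a GENCODE M21 transcript of the gene, so the start of Atp5g2 is less certain. The NRF1 letters began 42 bases before the start in Atp5g2 and at base 13 after it in Atp5g3, and no searched motif was in the window of Atp5g1. The ETS letters began 10 bases before the start in Uqcrh and 5 bases before it in Cox8a, with a further match at base 33 of Cox8a, beyond the printed letters.

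NRF1 letters were in 18 of the 71 windows (25.4%), against 4.60% of all 32851 windows and 10.2% of those with a GC content at or above the median of the oxidative phosphorylation windows (57.3%). ETS letters were in 16 windows (22.5%), against 8.86% of all windows and 15.9% of the GC-rich ones. YY1 letters were in 9 windows (12.7%), against 2.75% and 3.75%. At least 1 of these motifs was in 6 of the 12 windows of genes that were higher in knockout cells, in 4 of the 8 windows of genes that were lower and in 27 of the 48 windows of genes that did not pass the test. The share holding a motif was thus 50.0%, 50.0% and 56.3% in these classes. By motif, ETS letters were in 5 of the 12, 2 of the 8 and 9 of the 48, and all 9 windows with YY1 letters belonged to genes that did not pass the test. A match describes the letters in the window and does not show binding.

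Total counts were 6543013 to 9937008 in the knockout libraries and 11890729 to 16458689 in the control libraries. By rank correlation across genes the libraries formed 4 sets: knockout 1 to 4, knockout 5 with knockout 6, control 1 to 5, and control 6 by itself. Spearman correlations were 0.989 to 0.998 within a set, 0.926 to 0.954 between sets of 1 genotype and 0.882 to 0.976 between genotypes. The sets did not group by genotype. Control 6 correlated more with knockout 1 to 4 (0.968 to 0.976) than with control 1 to 5 (0.952 to 0.954). Knockout 1 to 4 correlated more with control 1 to 5 (0.937 to 0.941) than with knockout 5 and 6 (0.926 to 0.927). In CPM (read counts scaled to a common library size with TMM factors), Tnfrsf1a stood at 40.6 to 46.1 in the 6 knockout libraries, against 73.5 to 81.3 in control 1 to 5 and 54.9 in control 6 (log2 difference -0.76 ± 0.10 SE, edgeR adjusted p = 9.24e-05). Which exons the knockout allele lacks is not given in the sources used here, so this level is a limited check of the labels. Of 6 epithelial markers Epcam, Cdh1 and Vil1 had at most 1 count in any library, Krt8 at most 9 and Krt18 at most 34, and Krt20 averaged 5.20 ± 0.772 CPM in knockout cells and 1.94 ± 2.67 in control cells (SD, n = 6 each), with control 6 at 7.38. The myofibroblast markers Tagln and Vim averaged 3092 ± 467 and 3791 ± 175 CPM in knockout cells, against 1257 ± 346 and 2134.5 ± 474 in control cells (SD, n = 6 each).

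A pair of libraries stood apart in these genes themselves. In knockout 3, the library with the fewest counts, 75 of the 78 testable genes lay above the mean of knockout 1, 2 and 4, with a median log2 excess of 0.35, against 0.01 over all genes. In control 6, 61 of the 78 lay below the mean of control 1 to 5, with a median of -0.31, against -0.01 over all genes. These shifts were not particular to the set. Of 77 mitochondrial ribosomal protein genes, 74 lay above in knockout 3 (median 0.31) and 73 below in control 6 (median -0.53). The knockout 3 and control 6 shifts ran with exonic length, the union of a gene's annotated exons, over the whole table. Genes with up to 1000 exonic bases had medians of 0.36 in knockout 3 and -0.32 in control 6, and genes with over 4000 bases had medians of -0.10 and 0.08. Within the oxidative phosphorylation genes the knockout 3 excess was also described by length class. From the shortest to the longest class its medians were 0.38 (19 genes), 0.38 (29 genes), 0.26 (20 genes) and 0.34 (10 genes). In the longest class 8 of the 10 genes lay above, while Ndufs1 (-0.02) and Sdha (-0.04) did not. The union of exons can exceed the length of the main transcript, so these classes cannot separate the excess from transcript length. Counts of Rn45s, the ribosomal RNA precursor, made up 1.63% to 8.25% of the knockout libraries, highest in knockout 5 and 6, and 0.351% to 1.19% of the control libraries, with no overlap. The part that transcript length, residual ribosomal RNA or RNA quality has in the differences below was not tested.

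**Figure D1:**
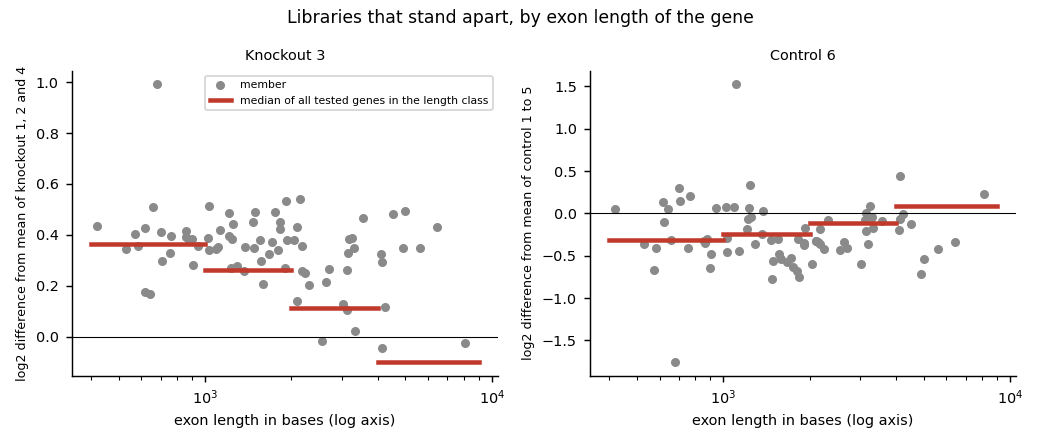
Log2 difference of knockout 3 from the mean of knockout 1, 2 and 4 (left) and of control 6 from the mean of control 1 to 5 (right), against exonic length in bases on a log axis. Grey points are the 78 testable oxidative phosphorylation genes and red lines the medians of all tested genes in 4 length classes, which are 0.36 and -0.32 in the shortest class and -0.10 and 0.08 in the longest.

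Across the 4 respiratory complexes and ATP synthase, individual genes moved in both directions and the median of the set was near 0 over all 12 libraries. That median was -0.04 and 0.01 for the knockout sets against control 1 to 5 but 0.18 and 0.26 against control 6, where the medians of all genes were 0.01 and -0.02. Knockout cells were compared with control cells by the edgeR quasi-likelihood test over 12146 genes, and a gene was called at a Benjamini-Hochberg adjusted p below 0.05. Of the 83 genes, 78 passed the low count filter, and of these 14 were higher (17.9%), 11 were lower (14.1%) and 53 did not pass the test. Over all genes tested 21.4% were higher and 21.6% lower, 43.0% in all, so the share called here, 32.1%, was below that of the table. The median log2 difference was 0.03, against 0.02 over all genes, and 71 of the 78 lay within 0.5 log2 of no difference (91.0%), against 64.4% of all genes. The genes called higher differed by 0.26 to 0.50 log2, that is by a factor of 1.198 to 1.42, and those called lower by -0.27 to -1.86. With libraries scaled by their totals alone the split was 8 higher and 16 lower, with 42.3% of all genes called, while the median over all genes moved to -0.04. Calls in the set numbered 33 without control 6 (49.9% of all genes), 30 without knockout 3 (44.1%), 27 without knockout 5 and 6 (52.0%), and 46 without these and control 6 (71.3%).

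All 6 knockout libraries lay above all 6 control libraries for 8 of the 78 genes, against 10.6% of all genes, and below them for Ndufv3 and Cox8a, against 12.5%. When the 4 sets were each summed and compared, all 14 genes called higher were higher in all 4 contrasts of a knockout with a control set, and 6 of the 11 called lower were lower in all 4. The other 5, Ndufa2, Ndufa6, Uqcrq, Atp5g2 and Atp5sl, were not lower in every contrast with control 6. The calls and the contrasts use the same 12 libraries, so their agreement is not independent support. Against control 6 the medians of the 78 genes were above 0 (0.18 and 0.26). These counts therefore cannot rank the higher calls as sounder than the lower ones. Over the 78 genes 25 were higher and 9 lower in all 4 contrasts, against 21.1% and 22.5% of all genes. A test on the 4 summed sets called none of 79 genes of the set by edgeR, DESeq2 or limma-voom, and none had an unadjusted p below 0.05 by any of these tools. Over all 13132 genes, those tests called 0 by edgeR (0.00%), 198 by DESeq2 (1.51%) and 0 by limma-voom, with 1047, 1348 and 1096 genes at an unadjusted p below 0.05.

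**Figure D2:**
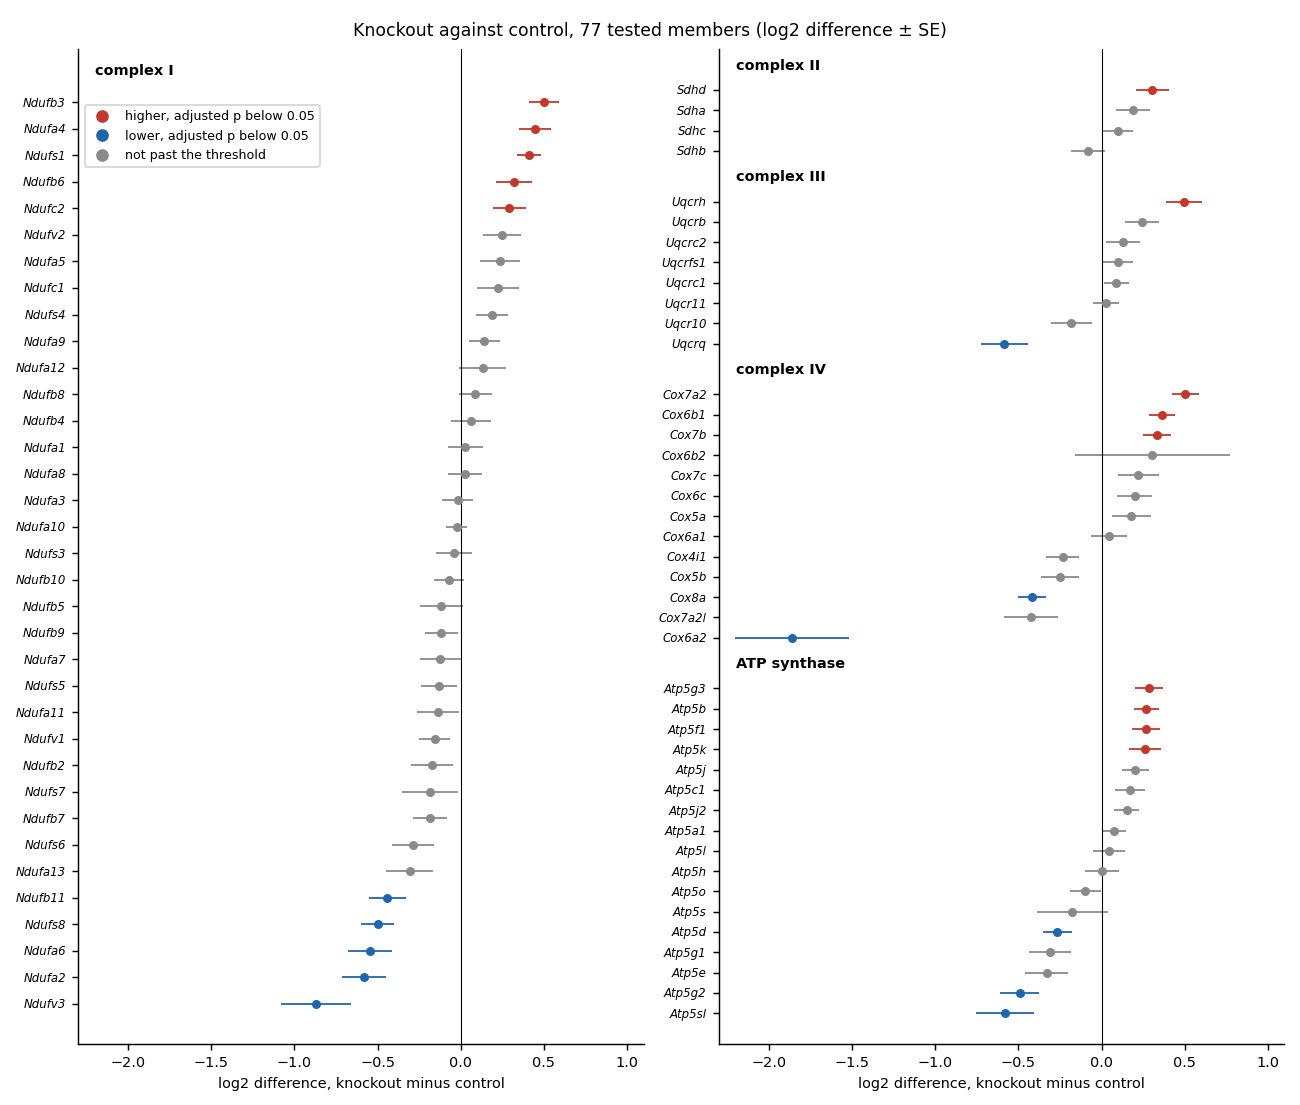
Log2 difference, knockout minus control, with its standard error for 77 of the 78 testable genes, arranged by complex, with genes called higher, called lower and not called marked apart. Most points lie within 0.5 of no difference, and Cox6a2 stands furthest out at -1.86.

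Summed over the genes of a complex, transcript levels of the groups were close. The whole set summed to 6808, 6776, 8244, 6796, 7297 and 7224 CPM in knockout 1 to 6, against 7080, 7299, 7005, 7030, 7505 and 6319 CPM in control 1 to 6. The groups overlapped, the highest value was knockout 3 and the lowest control 6. The knockout mean was 102.1% of the control mean for the whole set, 97.4% for complex I, 110.4% for complex II, 101.3% for complex III, 96.7% for complex IV and 107.3% for ATP synthase. Complex II summed to 439 ± 23.0 CPM in knockout cells and 398 ± 19.5 in control cells, and ATP synthase to 2895 ± 186 and 2699 ± 124 (SD, n = 6 each). In bulk RNA, fewer cells of a type and less RNA per cell cannot be told apart.

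**Figure D3:**
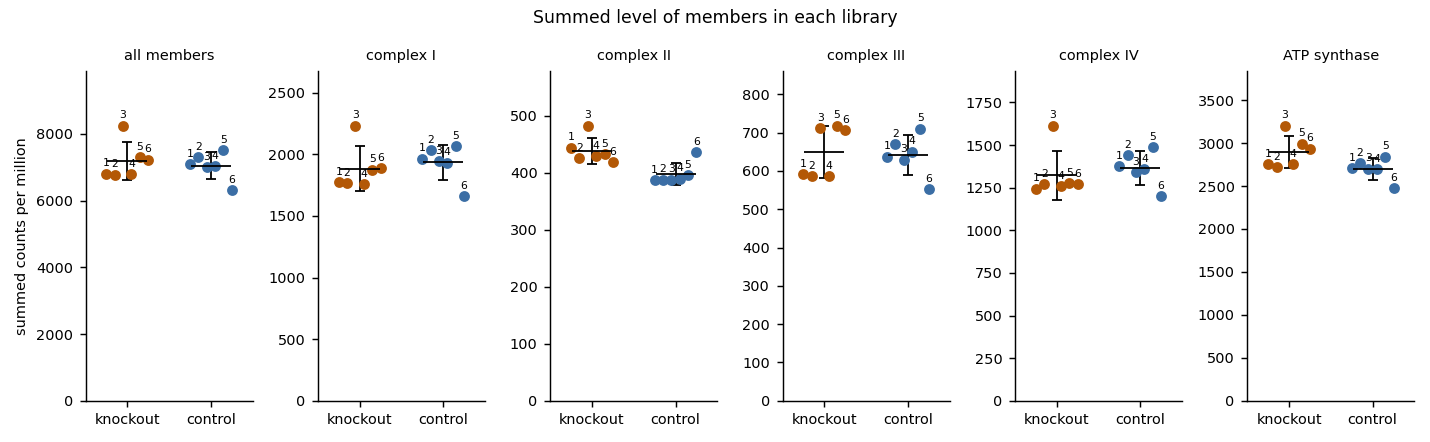
Summed CPM of the whole set and of each complex in every library, with the mean and SD of knockout and control and the library numbers beside the points. The groups overlap in each panel, knockout 3 is the highest knockout library except in complex III, and control 6 is the lowest control library except in complex II, where it is the highest.

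Complex I, NADH:ubiquinone oxidoreductase, is the largest complex, with a matrix arm that holds the flavin and iron-sulfur clusters and a membrane arm. Of its 36 genes 5 were higher, 5 were lower and 26 did not pass the test, with log2 differences of -0.31 to 0.25 among those 26. The median was -0.03. Among the sets it was -0.11 for knockout 1 to 4 against control 1 to 5 and -0.07 for knockout 5 and 6 against control 1 to 5, but 0.18 and 0.27 for the same knockout sets against control 6. The sign of this median therefore turned with the control set used.

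**Figure D4:**
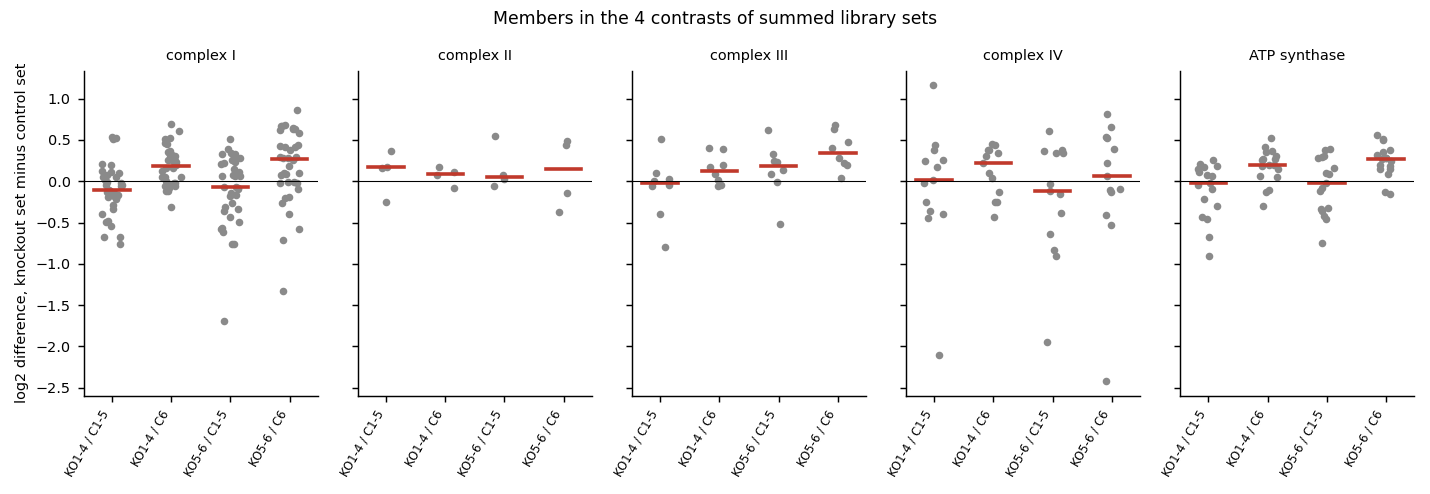
Log2 difference between summed library sets for each testable gene (grey) with the median of the complex (red), in the 4 contrasts of a knockout set (KO) with a control set (C). The complex I median is -0.11 and -0.07 against control 1 to 5 and 0.18 and 0.27 against control 6.

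Ndufs1, the largest iron-sulfur subunit of the matrix arm, had 92.2, 97.4, 93.7, 96.1, 89.0 and 79.3 CPM in knockout 1 to 6, against 64.1, 65.7, 69.9, 66.7, 67.0 and 78.2 in control 1 to 6. It was 0.41 ± 0.07 log2 higher in knockout cells (edgeR adjusted p = 0.000917). The groups did not overlap, though knockout 6 and control 6 nearly met, and the contrast of knockout 5 and 6 with control 6 was 0.10. Ndufb3, an accessory subunit of the membrane arm, averaged 32.7 ± 3.89 CPM in knockout cells and 23.1 ± 1.75 in control cells (SD, n = 6 each, 0.50 ± 0.09 SE in log2, edgeR adjusted p = 0.000932). Knockout 3 was its highest library at 40.3 CPM, and the other knockout libraries, at 30.1 to 33.4, also lay above the highest control, 26.1. Ndufa4, first assigned to complex I and since placed in complex IV, had 103, 100.5, 129, 98.9, 85.0 and 85.6 CPM in knockout 1 to 6, against 70.2 to 75.4 in the controls (0.45 ± 0.10 SE, edgeR adjusted p = 0.00287). Its controls were tight and every knockout library lay above them. By its name Ndufa4 is kept in the counts, medians and sums of complex I here, and not in those of complex IV. Smaller differences were found for the membrane arm subunits Ndufb6 (0.32, edgeR adjusted p = 0.029) and Ndufc2 (0.29, edgeR adjusted p = 0.0303), and these calls were lost without control 1 or control 3 (Ndufb6) and without knockout 3, knockout 5, control 2 or control 4 (Ndufc2).

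Ndufs8, an iron-sulfur subunit near the ubiquinone site, had 39.3, 39.3, 48.1, 40.3, 34.8 and 33.6 CPM in knockout 1 to 6, against 56.4, 56.4, 57.5, 58.1, 59.4 and 44.7 in control 1 to 6. It fell by 0.50 ± 0.10 log2 in knockout cells (edgeR adjusted p = 0.00175), and only knockout 3 reached above control 6. Ndufa2, an accessory subunit of the matrix arm, averaged 47.5 ± 6.49 CPM in knockout cells and 71.0 ± 12.2 in control cells (SD, n = 6 each; -0.58 ± 0.13 SE, edgeR adjusted p = 0.00392). Control 6, at 47.4 CPM, lay among the knockout libraries, and against it the log2 differences were -0.08 for knockout 1 to 4 and 0.10 for knockout 5 and 6. Ndufv3, a small accessory subunit of the flavoprotein module, had 37.2, 39.6, 50.3, 38.8, 18.7 and 21.5 CPM in knockout 1 to 6, against 66.7, 70.3, 60.4, 61.6, 66.8 and 50.5 in control 1 to 6. Its difference was -0.87 ± 0.21 (edgeR adjusted p = 0.0052), the groups did not overlap, and the fall was larger in knockout 5 and 6 (-1.70 and -1.34 against the control sets) than in knockout 1 to 4 (-0.67 and -0.31). Whether the knockout sets differ from each other in this gene was not tested. Ndufa6 (-0.54, edgeR adjusted p = 0.0057) and Ndufb11 (-0.44, edgeR adjusted p = 0.00637) were the other genes called lower.

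Complex II, succinate dehydrogenase, is also an enzyme of the citric acid cycle and is wholly nuclear encoded. Of its 4 genes 1 was higher and 3 did not pass the test, with a median of 0.14 that was positive in each of the 4 set contrasts (0.05 to 0.17). Sdhd, a membrane anchor, had 70.9, 62.5, 81.2, 68.5, 91.9 and 91.8 CPM in knockout 1 to 6, against 59.2 to 67.5 in the controls (0.31 ± 0.10 SE, edgeR adjusted p = 0.0271). Knockout 2 lay within the control range, and the adjusted p reached 0.0617 when single libraries were left out (knockout 5, knockout 6 or any of control 1 to 4). Sdha, the flavoprotein, had 210, 206, 199.8, 202, 169 and 167 CPM in knockout 1 to 6, against 161, 157, 162, 163, 152 and 216 in control 1 to 6 (0.19 ± 0.10 SE, edgeR adjusted p = 0.156). Control 6 was its highest library, and without that library Sdha was called higher. Sdhc, the other anchor (0.10 ± 0.09 SE, edgeR adjusted p = 0.423), and Sdhb, the iron-sulfur subunit (-0.08 ± 0.10 SE, edgeR adjusted p = 0.553), did not pass the test.

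Complex III, the cytochrome bc1 complex, had 1 of its 8 genes higher, 1 lower and 6 that did not pass the test (-0.18 to 0.24), with a median of 0.09. Uqcrh, the hinge protein that contacts cytochrome c1, had 67.2, 65.7, 88.0, 69.0, 78.1 and 76.9 CPM in knockout 1 to 6, against 47.8, 50.0, 45.4, 48.4, 60.5 and 63.2 in control 1 to 6 (0.50 ± 0.11 SE, edgeR adjusted p = 0.00262). Every knockout library lay above every control. Uqcrq, a small subunit in contact with cytochrome b, had 68.2, 67.4, 92.1, 70.4, 88.2 and 90.5 CPM in knockout 1 to 6, against 124, 131, 125, 125, 134 and 76.1 in control 1 to 6 (-0.59 ± 0.14 SE, edgeR adjusted p = 0.00543). Control 6 lay among the knockout libraries, and knockout 5 and 6 were 0.22 log2 above it. Uqcrc1, a core protein and the complex III gene with the highest mean CPM, averaged 163.5 ± 15.2 CPM in knockout cells and 153.7 ± 6.81 in control cells (SD, n = 6 each; 0.09 ± 0.08 SE, edgeR adjusted p = 0.366).

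Complex IV, cytochrome c oxidase, has a catalytic core encoded by mitochondrial DNA, and its nuclear subunits surround that core and include tissue-specific isoforms. Of 18 genes 13 were testable, and 3 were higher, 2 lower and 8 did not pass the test (-0.42 to 0.31), with a median of 0.18. The set contrasts of this median ran from -0.11 to 0.23. Cox7a2, the widely expressed form of subunit 7a, had 68.1, 65.4, 85.4, 66.4, 81.5 and 76.6 CPM in knockout 1 to 6, against 50.0 to 54.1 in the controls (0.50 ± 0.08 SE, edgeR adjusted p = 0.000401). This was the smallest adjusted p among the 78 genes, and the groups were well apart. Cox6b1, on the side of the intermembrane space, averaged 123.6 ± 11.3 CPM in knockout cells and 96.1 ± 6.05 in control cells (SD, n = 6 each; 0.36 ± 0.08 SE, edgeR adjusted p = 0.00259). Cox7b averaged 76.7 ± 9.004 and 60.8 ± 3.76 CPM in knockout and control cells (0.33 ± 0.09 SE, edgeR adjusted p = 0.00762). For all 3 genes each knockout library lay above each control library.

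Cox8a, the widely expressed form of subunit 8, had 114, 113, 129, 115, 97.2 and 96.4 CPM in knockout 1 to 6, against 148, 158, 141, 146, 156 and 139 in control 1 to 6. It fell by 0.42 ± 0.08 log2 (edgeR adjusted p = 0.0016), with no overlap. Per kilobase of annotated exon it ranked first of the 83 genes in control cells at 239.0 CPM per kb, ahead of Atp5o at 218.8 and Cox4i1 at 209.1. In knockout cells it stood at 178.8 CPM per kb, below Atp5b at 246.7, Cox6a1 at 204.5 and Atp5o at 204.3. The ranking depends on the annotated exons, whose union can exceed the length of the main transcript. Cox4i1, the widely expressed form of subunit 4, averaged 275.6 ± 34.3 CPM in knockout cells and 324.1 ± 31.0 in control cells (SD, n = 6 each; -0.23 ± 0.10 SE, edgeR adjusted p = 0.0761). It was called lower when either knockout 3 or control 6 was left out. Cox7a2l averaged 137.3 ± 28.8 CPM in knockout cells and 184.1 ± 34.3 in control cells (-0.42 ± 0.16 SE, edgeR adjusted p = 0.0523), with control 6 at 115 CPM. It likewise passed the test when either of those libraries was left out.

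Cox6a2, the form of subunit 6a found in heart and skeletal muscle, showed the largest difference of the set. It had 1.15, 0.898, 2.53, 1.597, 1.87 and 1.45 CPM in knockout 1 to 6, against 6.29, 6.40, 7.32, 7.77, 4.73 and 1.78 in control 1 to 6, from 7 to 18 and 28 to 111 counts per library. It fell by 1.86 ± 0.34 log2 (edgeR adjusted p = 0.000979), and it was the 1 gene of the set that passed a test against a fold of 1.5, against 9.66% of all genes. Control 6 lay within the knockout range, and the log2 difference from it was -0.26 for knockout 1 to 4 and -0.11 for knockout 5 and 6. Its partner Cox6a1 averaged 143.5 ± 23.6 CPM in knockout cells and 139.1 ± 13.6 in control cells (0.04 ± 0.11 SE, edgeR adjusted p = 0.77). The ratio of Cox6a2 to Cox6a1 was 0.0110 ± 0.0033 in knockout cells and 0.0425 ± 0.0182 in control cells (SD, n = 6 each), so Cox6a2 was a small fraction in both. Itgad, which overlaps Cox6a2 on the opposite strand, had at most 1 count in any library. Of the striated muscle markers, Myod1, Myog, Ckm, Actc1 and Myh7 had at most 8 counts in any library, Tnnt3 was lower in knockout cells (-1.18) and Acta1 was called higher (1.83). Acta1 followed the library sets, with 133.8 to 140.8 CPM in knockout 1 to 4 and 19.5 and 19.9 in knockout 5 and 6, against 15.8 to 18.1 in control 1 to 5 and 78.5 in control 6. Their part in the Cox6a2 difference was not tested.

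The other tissue-specific forms were at low levels, and all but Cox6b2 were removed by the low count filter. Cox4i2, a form of subunit 4 found in lung and in oxygen-sensing cells, had 0, 0, 2, 1, 0 and 0 counts in knockout 1 to 6, against 7, 9, 8, 4, 16 and 5 in control 1 to 6, and was removed by the low count filter. Without that filter it was called lower. Cox7a1, the muscle form of subunit 7a, had 0 to 7 counts in knockout libraries and 7 to 13 in control libraries, and Cox8b, the muscle and brown fat form of subunit 8, had 0 counts in each knockout library and 0 to 4 in control libraries. Cox7b2 and Cox8c had 0 counts in all 12 libraries, which allows a level of up to 0.0222 CPM over all libraries by counting error alone. Cox6b2, the testis form of subunit 6b, averaged 1.97 ± 1.12 CPM in knockout cells and 1.55 ± 1.02 in control cells (SD, n = 6 each; 0.31 ± 0.47 SE, edgeR adjusted p = 0.627). It followed the library sets, with 1.92 to 3.16 CPM in knockout 1 to 4 and 0.62 in knockout 5 and 6. Control 1 to 5 had 0.80 to 1.47 CPM and control 6 had 3.56.

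**Figure D5:**
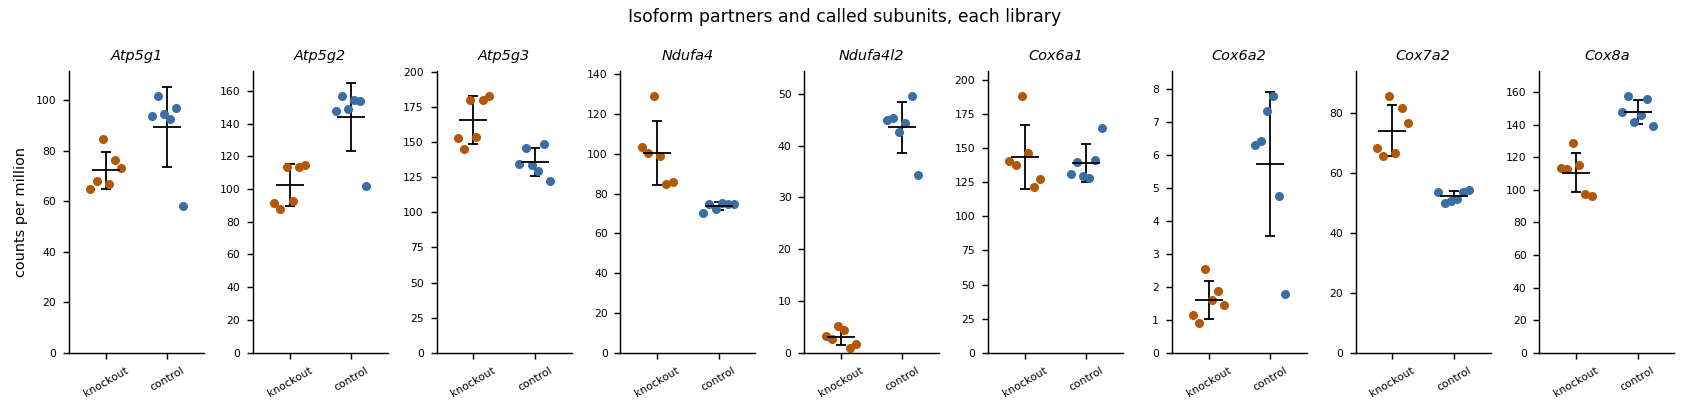
CPM in every library, with mean and SD, for the 3 subunit c genes, Ndufa4 with its paralog Ndufa4l2, both forms of subunit 6a, Cox7a2 and Cox8a, with knockout left of control. Atp5g3 is higher and Atp5g2 lower in knockout cells, and for Atp5g1, Atp5g2 and Cox6a2 the lowest control point, control 6, lies near or within the knockout points.

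ATP synthase had 4 of its 17 genes higher, 3 lower and 10 that did not pass the test (-0.33 to 0.20), with a median of 0.05. Among the sets it was -0.02 for both knockout sets against control 1 to 5, and 0.20 and 0.27 against control 6. Atp5b, the catalytic beta subunit and the ATP synthase gene with the highest mean CPM, had 1028, 1007, 1104, 1019, 1054 and 1061 CPM in knockout 1 to 6, against 871, 861, 868, 852, 886 and 864 in control 1 to 6 (0.27 ± 0.08 SE, edgeR adjusted p = 0.0125). The groups did not overlap and both were tight, and each set contrast gave 0.26 to 0.28. Atp5f1 (now Atp5pb), a stator subunit, had 166 to 213 CPM in knockout cells, against 138 to 170 in control cells (0.27 ± 0.08 SE, edgeR adjusted p = 0.0223). Atp5k, which lies in the membrane part, was 0.26 log2 higher (edgeR adjusted p = 0.0402), a call that was lost without knockout 3, knockout 5, knockout 6 or any of control 1 to 5. Atp5d, the delta subunit of the central stalk, averaged 138.3 ± 15.9 CPM in knockout cells and 166.3 ± 10.9 in control cells (-0.27 ± 0.09 SE, edgeR adjusted p = 0.0248), and this call was lost without knockout 1, knockout 4, control 2 or control 5. Atp5sl, named Dmac2 in RefSeq and known as an assembly factor of complex I, averaged 8.15 ± 2.001 CPM in knockout cells and 12.2 ± 2.06 in control cells (-0.58 ± 0.17 SE, edgeR adjusted p = 0.0171). It meets the naming rule but is not a subunit of ATP synthase.

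Subunit c, which forms the proton-carrying ring of ATP synthase, is encoded by Atp5g1, Atp5g2 and Atp5g3, whose mature proteins are identical and whose targeting peptides differ. Atp5g3 had 153, 145, 180, 153, 180 and 183 CPM in knockout 1 to 6, against 135, 146, 134, 130, 149 and 122 in control 1 to 6 (0.29 ± 0.09 SE, edgeR adjusted p = 0.0169). Atp5g2 had 91.5, 87.8, 114, 92.4, 114 and 115 CPM in knockout 1 to 6, against 148, 157, 149, 155, 154 and 102 in control 1 to 6 (-0.49 ± 0.12 SE, edgeR adjusted p = 0.0052). Atp5g1 had 64.7, 67.9, 84.6, 66.6, 76.2 and 73.2 CPM in knockout 1 to 6, against 93.6, 102, 94.4, 92.4, 96.9 and 58.0 in control 1 to 6 (-0.31 ± 0.13 SE, edgeR adjusted p = 0.0635). Atp5g3 was thus higher and Atp5g2 lower in knockout cells, while their sum with Atp5g1 was 340 ± 36.2 CPM in knockout cells and 369 ± 44.4 in control cells (SD, n = 6 each). As a share of that sum, Atp5g3 made up 47.6% to 49.4% in knockout libraries and 34.4% to 43.3% in control libraries, and Atp5g2 29.2% to 30.9% and 36.2% to 41.0%. Neither share overlapped between the groups, also with control 6, and the ratio of Atp5g2 to Atp5g3 was 0.616 ± 0.0152 in knockout cells and 1.06 ± 0.120 in control cells (range 0.836 to 1.19). These shares are of CPM without correction for transcript length and were described after the values were seen, with no test.

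Reads can be shared with gene copies or with overlapping genes. Expected counts held decimals in 1 or more libraries for 3 of the 83 genes, Ndufs5, Cox7c and Ndufa7, none of them called, and were whole in all 12 libraries for the other 80. In the GENCODE M21 annotation, exons of 5 of the 83 genes overlap a gene on the same strand and exons of 24 overlap a gene on the opposite strand, 7 of them among the 25 called genes: Ndufs1, Ndufa2, Ndufb6, Ndufb11, Cox6a2, Atp5d and Atp5f1. Since the strand setting of the counting is not known, reads of such partners cannot be told apart. Of the tested partners of these 7, Tmco6, opposite Ndufa2, was itself lower in knockout cells (-0.71, edgeR adjusted p = 0.036). So was Eef1b2, opposite Ndufs1, with 559.5 CPM in knockout cells and 725.3 in control cells (-0.37, edgeR adjusted p = 0.049), while Ndufs1 was higher. Rbm10, opposite Ndufb11, differed in the direction of Ndufb11 without passing the test (-0.39, edgeR adjusted p = 0.0555). The same held for Wdr77, opposite Atp5f1 (0.39, edgeR adjusted p = 0.102).

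The subunits were set beside lists of genes that assemble, regulate or feed the respiratory chain. Over all genes tested 21.4% were higher and 21.6% lower, and each count below stands beside these shares. Among complex I assembly factors, 2 of 14 were higher and 1 lower (median 0.10). Ndufaf3 averaged 6.17 ± 1.51 CPM in knockout cells and 11.97 ± 1.57 in control cells (SD, n = 6 each; -0.96 ± 0.17 SE, edgeR adjusted p = 0.000644), and Acad9 was 0.35 log2 higher (edgeR adjusted p = 0.00254). None of 4 complex II assembly factors passed the test (median -0.11), and of 6 for complex III only Ttc19 did, with 36.2 ± 0.9499 CPM in knockout cells and 21.6 ± 4.09 in control cells (0.75 ± 0.11 SE, edgeR adjusted p = 0.000216). Of 22 testable complex IV assembly factors 1 was higher, the copper chaperone Cox11 (0.37, edgeR adjusted p = 0.00496), and 4 were lower, with Sco2, another copper chaperone, at -0.51 (edgeR adjusted p = 0.00406). Of 4 genes of ATP synthase assembly and inhibition 1 was higher: Tmem70, which acts in assembling the subunit c ring, had 71.5 ± 6.79 CPM in knockout cells and 43.8 ± 1.17 in control cells (0.71 ± 0.07 SE, edgeR adjusted p = 2.61e-05). Every knockout library lay above every control for Tmem70 and Ttc19, as it did for 10.6% of all genes.

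Of 12 testable regulators of mitochondrial gene expression 3 were higher and 1 lower (median 0.11). Tfb2m, a factor needed to start mitochondrial transcription, averaged 32.7 ± 2.39 CPM in knockout cells and 21.1 ± 0.802 in control cells (SD, n = 6 each; 0.63, edgeR adjusted p = 4.68e-05). Gabpa, the ETS factor named above, averaged 68.5 ± 5.37 and 55.9 ± 2.92 CPM in knockout and control cells (0.29, edgeR adjusted p = 0.00554). Nrf1, Tfam and Yy1 did not pass the test, and Ppargc1a, a coactivator of mitochondrial biogenesis, had at most 4 counts in any library. Of 77 mitochondrial ribosomal protein genes, 7 were higher and 5 lower (median 0.05), again beside 21.4% and 21.6% of all genes. Of 9 genes of supercomplex and cristae organisation 2 were higher (22.2%), Apoo (0.67, edgeR adjusted p = 0.00154) and Minos1 (0.41, edgeR adjusted p = 0.00431).

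Electrons also enter the chain outside complexes I and II. Of 7 electron carriers and other entry points 3 were higher (42.9%, against 21.4% of all genes) and none lower (median 0.13). Gpd2, the glycerol-3-phosphate dehydrogenase that passes electrons from the cytosol to ubiquinone, averaged 149.4 ± 26.2 CPM in knockout cells and 56.3 ± 17.1 in control cells (SD, n = 6 each; 1.41 ± 0.18 SE, edgeR adjusted p = 8.79e-05). Cycs, cytochrome c, averaged 139.8 ± 45.6 CPM in knockout cells and 77.8 ± 9.87 in control cells (0.85, edgeR adjusted p = 0.00331). Of 16 citric acid cycle and pyruvate dehydrogenase genes 8 were higher, 3 lower and 5 did not pass the test (median 0.25). The shares higher and lower were 50.0% and 18.8%, against 21.4% and 21.6% of all genes. Idh3a, the catalytic subunit of the NAD-linked isocitrate dehydrogenase, averaged 134.7 ± 18.4 CPM in knockout cells and 69.9 ± 4.50 in control cells (0.95 ± 0.09 SE, edgeR adjusted p = 2e-05), and Dlat, of the pyruvate dehydrogenase complex, was 0.38 log2 higher (edgeR adjusted p = 0.000286). With libraries scaled by their totals alone the citric acid cycle split was 5 higher and 3 lower.

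All 7 genes of the hypoxia-linked list were lower in knockout cells (median -1.49), against 21.6% of all genes, and they were lower in all 4 set contrasts. The list was chosen with earlier results of these data known, so this count is not independent evidence. Its median was -1.29 for knockout 1 to 4 and -1.59 for knockout 5 and 6 against control 1 to 5. Against control 6 it was -0.40 and -1.10. Ndufa4l2, a paralog of Ndufa4 that hypoxia induces and that the naming rule does not take, averaged 3.03 ± 1.62 CPM in knockout cells and 43.5 ± 5.02 in control cells (SD, n = 6 each; -3.87 ± 0.30 SE, edgeR adjusted p = 3.67e-06). The ratio of Ndufa4l2 to Ndufa4 was 0.0290 ± 0.0127 in knockout cells and 0.591 ± 0.0705 in control cells. Higd1a, a small inner membrane protein that hypoxia induces, averaged 41.4 CPM in knockout cells and 72.2 in control cells (-0.80, edgeR adjusted p = 0.000119). The oxidative phosphorylation set did not share this direction, with a median of 0.03.

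Some markers of other cells differed between the groups. Of 6 macrophage markers 4 were lower (66.7%, against 21.6% of all genes), among them Itgam (-2.21) and Lyz2 (-1.03). The 6 markers summed to 34.0 to 47.3 CPM in knockout libraries and 67.7 to 117.5 in control libraries. Of 7 smooth muscle and myofibroblast markers 6 were higher (85.7%, against 21.4% of all genes, median 1.47). However, 4 of the 7 changed direction among the set contrasts, with medians of 2.0, 0.76 and 0.95 and, for knockout 5 and 6 against control 6, -0.23. Epithelial markers summed to 4.92 to 9.86 CPM in knockout libraries and 1.02 to 8.84 in control libraries, with 1 of 6 testable and none called, and endothelial markers to 5.28 to 9.31 and 6.36 to 10.5 CPM, with Tek lower (-1.55). The brown adipocyte markers Ucp1 and Cidea had at most 1 count. The part of these cells in the oxidative phosphorylation values was not tested.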

How the data were processed

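The authors deposited a table of RSEM expected counts for each gene, which are estimates and may hold decimals. RSEM 1.2.15 and Bowtie2 2.1.0 are named, per the submitters' processing notes, and messenger RNA was selected with oligo-dT and made into dUTP strand-specific libraries, per the labels' protocols. The notes name a human build although the symbols are those of mouse genes, which leaves the counting build uncertain. Neither the annotation nor the strand setting is given in the sources used here. Groups and replicate numbers came from the titles. Values were rounded to whole numbers, of which 2.67% to 3.48% per library had decimals.

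Genes were kept with filterByExpr (minimum count 10, minimum total 15), scaled with TMM factors and tested with the quasi-likelihood test of edgeR 4.0.16 in R 4.3.3, with genotype as the only term and Benjamini-Hochberg adjustment over all 12146 genes. Log2 differences are knockout minus control, the SE is the log2 difference divided by the root of F, and sets were compared by log2 CPM of summed counts with a prior count of 2. Exonic lengths are the union of a gene's annotated exons in GENCODE M21. Alternatives used DESeq2 1.42.0, limma 3.58.1, other scalings, filters and sets of libraries. The scripts were tested on 12 simulated independent libraries in which 100 genes changed 2-fold and 100 changed 4-fold. Of these 73% and 97% were recovered, with 6 false calls. The simulation held no library sets and no smaller folds, so it does not cover those features of the data.

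The genes and lists were chosen with earlier results of these data known. Named genes are, per complex, up to 3 called in each direction with the smallest adjusted p and the one with the highest mean CPM, all of complex II, all isoform partners, Tnfrsf1a and up to 2 called genes per list; 1 gene is not reported here. Called genes outside that rule, list members given by count or call alone, subunit c shares and printed promoters were chosen after their values were seen. Whole counts set the precision, and floors cover counting error only.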

Additional observations from a re-analysis of the deposited data

Results flagged for a closer look

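In the values listed here 1 library lay far from the other 5 of its group, by Dixon's test at 95%. Chance gives this in about 1 of 20 independent groups. Here 31 of 128 groups did so, but they share the same 12 libraries and some sum the same genes. They are not independent, so the rates cannot be compared. Control 6 accounted for 21 of the 31 groups, knockout 3 for 9 and knockout 6 for 1. Knockout 3 was the highest knockout library for Ndufb3 at 40.3 CPM, Cox4i1 at 345, Atp5d at 169.3, Sdhc at 131, Cox4i2 at 0.316 and Higd1a at 50.15 CPM. It was also highest for the summed CPM of the whole set at 8244, of complex I at 2232 and of complex IV at 1614.

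Control 6 was the lowest control library for Ndufs8 at 44.7 CPM, Ndufa2 at 47.4, Uqcrq at 76.1, Atp5g2 at 102.1, Atp5g1 at 58.0 and Cox7a2l at 115.3 CPM. Its summed CPM of complex I was 1658, also the lowest. It was the highest control library for Sdha at 216.5, Cox6a1 at 164.5, Cox6b2 at 3.56 and Cox7a1 at 0.827 CPM, and for the summed CPM of complex II at 437.

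Outside the set, control 6 was lowest for Tnfrsf1a at 54.9 CPM, Sco2 at 20.6 and Cycs at 58.6, and highest for Ttc19 at 29.8, Gpd2 at 91.1, Lyz2 at 93.2, Tagln at 1953, Vim at 3095 and Acta1 at 78.5 CPM. Knockout 6 was the highest knockout library for Lyz2 at 36.9 CPM.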

How the results depend on the processing

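No gene of the set was called in the opposite direction under any alternative, and 20 of the 25 calls were kept without each library in turn. The calls shared with the 25 were 25 of 26 with DESeq2 size factors, 25 of 31 with the DESeq2 test, 25 of 25 with limma-voom, with a CPM of at least 1 in 6 libraries and without Rn45s counts, and 23 of 24 with no filter. Library totals alone gave 24 calls, 19 shared, with 8 higher (complex I 3, complex II 0, ATP synthase 1), and 4 lower for complex IV and 5 for ATP synthase. The DESeq2 test gave 2 higher for complex III and 4 lower for complex IV, and no filter gave a complex IV median of -0.11, as Cox4i2, Cox7a1 and Cox8b, all at low counts, entered it. Same-numbered libraries of the groups did not deviate together (correlations of -0.36 to 0.18). The library sets fall at different numbers in each group, so these correlations cannot show whether the numbers pair the libraries. The replicate block gave 19 calls, 18 shared, with 9 higher, and for ATP synthase 0 higher and 1 lower, with 32.7% of all genes called. Without knockout 5 and 6 complex III had 2 lower. Without knockout 5 and 6 and control 6 the calls rose to 46 of 78, with 26 lower, while 4319 of all genes were higher and 4508 lower (71.3%). By complex that gave 3 higher for complex II and 6 for complex IV, and 12, 1, 2, 5 and 6 lower from complex I to ATP synthase, with a complex IV median of 0.028. With the 4 summed sets every count of calls by edgeR was 0, all genes included, and the medians were 0.057 for complex II and -0.076 for complex IV. The test against a fold of 1.5 called 467 genes higher and 706 lower, with 0 higher and 1 lower in the set (Cox6a2, complex IV) and 0 in every other complex. The cause of these changes was not tested. The fits that leave some libraries out also hold fewer libraries, and the part of that was not tested either.

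Without 1 library, calls in the set numbered 21 (without control 2) to 33 (without control 6), with 11 to 16 higher and 10 to 18 lower, and 2148 to 3092 of all genes were higher and 2270 to 2977 lower. Complex I had 4 to 5 higher and 5 to 8 lower, complex II 0 to 2 higher, complex III 1 to 2 higher, complex IV 2 to 5 lower, and ATP synthase 3 to 5 higher and 2 to 5 lower. Most lower calls, 18, came without knockout 3 or without control 6. Medians ran from -0.02 to 0.06 for the whole set and -0.02 to 0.08 for ATP synthase. Signs changed for genes that were not called. Cox6a1 was at -0.014 with library totals alone, at -0.11 in the summed sets and from -0.045 (without knockout 3) to 0.099 (without control 6) when 1 library was left out. In the summed sets Sdha was at -0.0057, Sdhb at 0.094 and Cox6b2 at -0.47. Depth limits Cox6a2, Cox6b2 and the forms with few counts.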

Other observations

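Of the summed CPM of the subunit c genes, Atp5g2 made up 30.01% ± 0.685 in knockout cells and 38.9% ± 1.59 in control cells, Atp5g3 48.7% ± 0.720 and 37.1% ± 3.18, and Atp5g1 21.3% ± 1.08 and 24.1% ± 1.75 (SD, n = 6 each). Over all 11705 genes with a length, the excess of knockout 3 had a Spearman correlation of -0.539 with exonic length, and over the 78 testable oxidative phosphorylation genes one of -0.265. These describe genes within 4 libraries, which share depth and preparation, and carry no test.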
